A study of Homo sapiens with 6 samples.

Results

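KON is a cell line established from oral squamous cell carcinoma (OSCC), and its expression was set against that of HSC-3 and Ca9-22, both of which are also established OSCC lines. Of the 6 one-color arrays in the study, 2 hold RNA from KON, 2 from HSC-3, and 2 from Ca9-22, and the KON arrays were taken by their cell line label. In each line, 1 array holds cells given a control siRNA (siCtrl) and 1 holds cells given siDLEU1-2, which targets the long noncoding RNA DLEU1. All RNA was collected 72 h after transfection, so the siCtrl arrays also hold transfected cells, and none holds untreated cells. Each group is thus 1 line, and the labels do not say whether its arrays come from separate cultures. The p-values below therefore set 2 arrays of 1 line against the spread among these 6 arrays, which for the 4 other arrays includes the difference between HSC-3 and Ca9-22.

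Squamous carcinoma lines keep much of the program of the stratified epithelium they came from, in which basal keratins, desmosomes, and the transcription factor TP63 mark the cell type. They differ from each other in genes that each tumor or culture has switched on or off. Known examples are the cell cycle inhibitor CDKN2A, the cancer-testis genes, which are normally read in germ cells, the genes that the antioxidant factor NRF2 turns on, and the genes that interferon induces. In cultures of 1 cell type, fewer expressing cells and less RNA per cell cannot be told apart.

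A level in this text is the log2 of the processed signal of a probe, which is its brightness after background subtraction, minus the 75th percentile of its array. The processed signal at that percentile was 200 to 257 across the 6 arrays, and the software marked 43.0% to 45.7% of the 50599 probes per array as well above background, referred to as detected here. DLEU1 followed the siRNA labels in every line, with a level of 2.16 in KON, 1.39 in HSC-3, and 1.56 in Ca9-22 after siCtrl and of -1.48, -2.71, and -1.88 after siDLEU1-2. Of the other probes, 24517 were detected on at least 2 arrays and were kept, and they carry 18450 gene names. All 11 squamous epithelial markers were detected on both KON arrays. Of 11 mesenchymal markers, VIM, CDH2, ZEB1, FN1, and COL1A1 were detected on both KON arrays and the other 6 on neither. Markers of other cell types were detected in part, with CD79A and CD14 of 4 leukocyte markers, CDH5 of 3 endothelial markers, and PMEL of 3 melanocyte markers detected on both KON arrays, and PTPRC, CD3E, PECAM1, MLANA, TYR, and HBB on neither.

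KON differed from the other lines in a few percent of the probes, and the difference was much the same after either siRNA. At an adjusted p below 0.05 in limma with the siRNA as a term, KON was higher in 536 probes (2.19%) and lower in 277 (1.13%). These probes are called higher or lower here. Independent of any model of the spread, 1058 probes (4.32%) had both KON arrays over 1 above all 4 other arrays on the log2 scale, and 677 probes (2.76%) had both over 1 below. Such probes are referred to as set apart, and the distance between the nearest KON array and the nearest other array is their gap. For HSC-3 in the place of KON, 3.32% of the probes were set apart higher and 3.72% lower, and for Ca9-22, 3.92% and 4.0%. In the same fit for these lines, limma called 293 probes higher and 339 lower for HSC-3, and 481 and 444 for Ca9-22. The KON difference after siCtrl and that after siDLEU1-2 correlated at r = 0.86 across probes, which is a description, as probes are not independent replicates. Between the 2 KON arrays, the median absolute difference of a probe was 0.39. It was 0.37 between the 2 HSC-3 arrays and 0.35 between the 2 Ca9-22 arrays. Between the means of 2 lines, it was 0.67 for KON and HSC-3 and 0.66 for KON and Ca9-22. For HSC-3 and Ca9-22 it was 0.67 too, so KON was about as far from the other lines as they were from each other.

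The counts lean on dim probes and on the way the spread was modeled. Of the 536 probes called higher, 377 were detected on none of the 4 other arrays, and since these probes were kept only because of the KON arrays, they had to differ. Of those called, 105 of the higher and 141 of the lower probes were detected on all 6 arrays. Among the probes set apart, 493 of the 1058 higher were detected on none of the 4 other arrays. Of the 677 lower, 282 were detected on neither KON array. Of those set apart, 334 of the higher and 339 of the lower probes were detected on all 6 arrays. Among the 18094 probes of this kind fitted alone, limma called 24 higher and 26 lower. With the cell line as a random block, 36 were called higher and 5 lower, and without either of the KON arrays, 0 were called, although 1118 higher and 899 lower probes without the siCtrl array, and 1011 and 820 without the siDLEU1-2 array, had an unadjusted p below 0.05.

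Of the 15 probes that set KON apart most widely upward, each of another gene, 13 were detected on no array of the other lines. The genes described here are NR0B1, MAGEA6, EPDR1, ALDH3A1, GALNT14, SRGN, COX7B2, CES1, MAGEC2, LINC00221, CDH18, GTSF1, NPFFR2, and WNT5A. NR0B1, an orphan nuclear receptor that represses transcription of steroidogenic genes, had levels of 5.63 and 5.54 in KON after siCtrl and siDLEU1-2, against -5.68 and -5.70 in HSC-3 and -5.57 and -5.39 in Ca9-22. The lines do not overlap, and NR0B1 was not well above background in HSC-3 or Ca9-22. Its level in KON was therefore at least 534-fold higher, a bound that compares KON with the lowest signal well above background on each other array. The fitted difference was 11.17 ± 0.25 on the log2 scale (SE, n = 2 against 4 arrays), and that of a second probe was 6.12. As both probes passed the filter through the KON arrays alone, their calls are no support for the difference, and the same holds for the other 12 probes of this group that were detected in KON only, whose values are a description.

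ALDH3A1, an aldehyde dehydrogenase of the stratified epithelium and cornea, had levels of 5.27 and 4.48 in KON after siCtrl and siDLEU1-2. In HSC-3 its levels were -5.57 and -5.22, and in Ca9-22 they were -5.45 and -5.27. It was at least 327-fold higher in KON, and its second probe gave a difference of 9.98, but both probes were detected in KON only. CES1, a carboxylesterase that hydrolyzes drugs and lipid esters, reached the highest levels of these genes in KON, at 7.56 and 8.19. HSC-3 had -1.55 and -2.80 for CES1, and Ca9-22 had -5.52 and -5.35. In this probe, which was not detected in Ca9-22, the difference of KON was 10.05 from HSC-3 and 13.31 from Ca9-22. The CES1 probe detected on all 6 arrays had -1.97 and -2.75 in HSC-3 and -2.18 and -2.75 in Ca9-22. With that probe KON differed by 6.99 and 7.10, so a difference between the other lines depends on the probe. All 4 probes of CES1 were called higher, by 7.04 to 11.68.

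SRGN, the core protein of an intracellular proteoglycan of secretory granules, had levels of 4.92 and 5.53 in KON, -4.51 and -5.60 in HSC-3, and -5.43 and -5.27 in Ca9-22. EPDR1, which encodes an ependymin-related protein, had 4.89 and 5.33 in KON and at most -5.42 elsewhere. WNT5A, a secreted ligand of noncanonical Wnt signaling, had 3.07 and 2.70 in KON, -5.61 and -5.65 in HSC-3, and -5.47 and -4.38 in Ca9-22. For these genes the KON arrays stand alone, with bounds of at least 417-fold for SRGN, 385-fold for EPDR1, and 82.2-fold for WNT5A. CDH18, a classical cadherin mainly known from the nervous system, was at least 73.9-fold higher, with 2.75 and 2.72. GALNT14, which starts mucin-type O-glycosylation, was at least 201-fold higher, and its 2 KON levels were equal at 4.17.

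Some of the remaining genes of this group are normally read in the testis or other germ cells, as are the MAGE genes described below. COX7B2, a testis form of a cytochrome c oxidase subunit, had levels of 4.36 and 3.66 in KON and none above -5.55 in the other lines. GTSF1, a factor of the piRNA pathway in germ cells, had 4.47 and 4.40 in KON, -2.76 and -2.79 in HSC-3, and -5.31 and -5.13 in Ca9-22. GTSF1 was detected in HSC-3 too, and against that line alone the difference was 7.21. The difference of 8.44 ± 0.99 from the mean of both lines includes Ca9-22, where GTSF1 was not well above background. The neuropeptide receptor NPFFR2 and the noncoding RNA LINC00221 were at least 36.0-fold and 77.3-fold higher in KON.

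**Figure D1:**
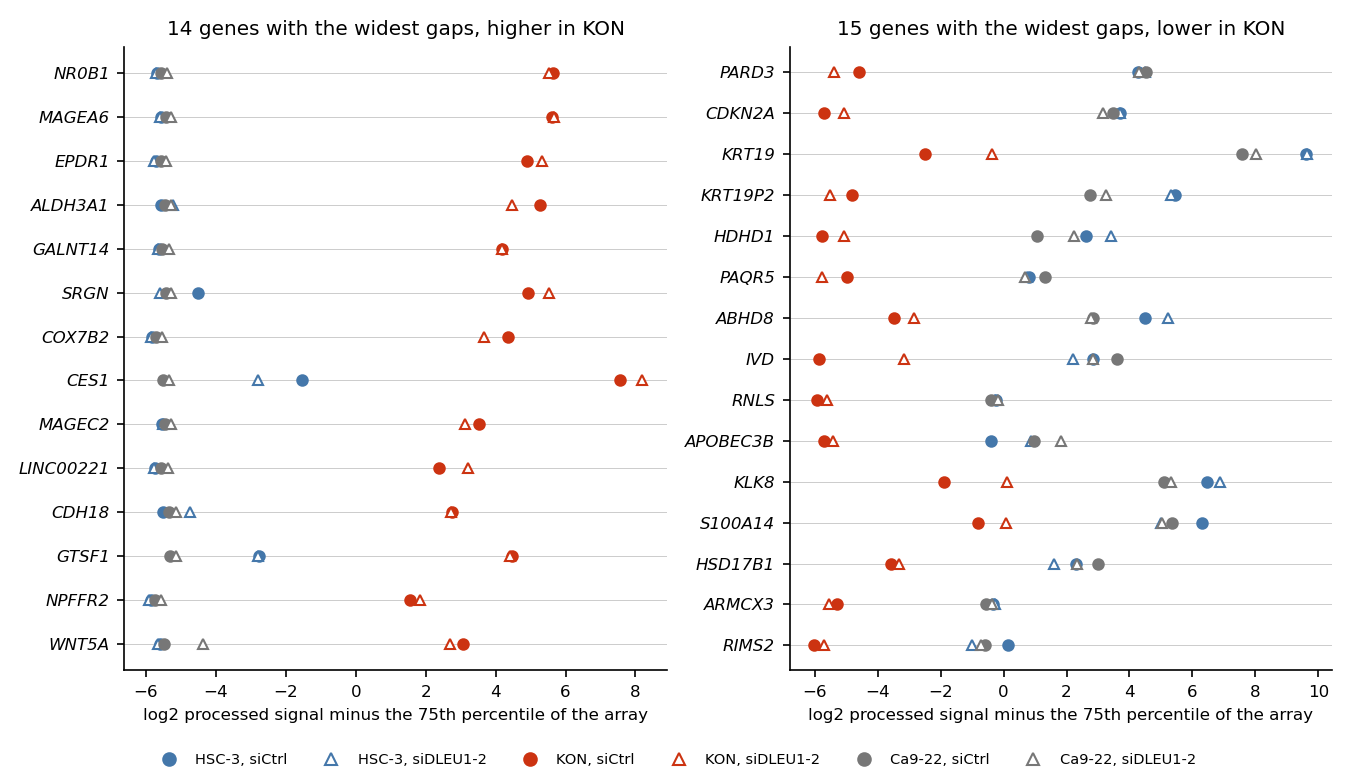
Levels on each array of genes with the widest gaps, 14 higher and 15 lower in KON, as log2 processed signal minus the 75th percentile of the array; circles are siCtrl, triangles siDLEU1-2, and colors the lines. In every gene both KON arrays lie on one side of the 4 other arrays, by 7.08 to 10.93 on the left and by 4.71 to 8.85 on the right.

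Downward, the widest gaps belonged to PARD3, CDKN2A, KRT19, KRT19P2, HDHD1, PAQR5, ABHD8, IVD, RNLS, APOBEC3B, KLK8, S100A14, HSD17B1, ARMCX3, and RIMS2. The genes PARD3, CDKN2A, and KRT19 have roles in epithelial polarity, cell cycle arrest, and the cytoskeleton. CDKN2A encodes p16, which inhibits the kinases CDK4 and CDK6, and by another reading frame ARF, which stabilizes p53. One of its probes (chromosome 9 of hg19, from 21970901 to 21970960) had levels of -5.70 and -5.08 in KON, 3.71 and 3.70 in HSC-3, and 3.47 and 3.17 in Ca9-22. This probe was not well above background in KON, so its signal was at least 147-fold lower in KON (adjusted p = 0.00266 from limma). The brighter CDKN2A probe, which was detected on every array and the files assign to NM_058197, had -0.08 and 0.34 in KON, 6.15 and 6.14 in HSC-3, and 5.78 and 5.56 in Ca9-22, a difference of -5.78 ± 0.32 (SE, n = 2 against 4 arrays; adjusted p = 0.00458 from limma). The size of the CDKN2A difference thus depends on the probe, and that of the brighter probe is 54.8-fold.

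The neighbors of CDKN2A on chromosome 9 were not called. MTAP, an enzyme of methionine salvage next to CDKN2A, had levels of 1.51 and 3.49 in KON, 1.52 and 2.77 in HSC-3, and 1.17 and 2.34 in Ca9-22. The lines overlap in MTAP, and its difference of 0.55 ± 0.33 was not called (adjusted p = 0.405 from limma). DMRTA1, on the other side of the locus, had -0.20 and 0.01 in KON and -5.51 to -2.39 on the other arrays, and was set apart higher without being called (difference 4.33, adjusted p = 0.0617 from limma). CDKN2B, which encodes p15, had -3.90 and -5.41 in KON, -1.19 and 0.77 in HSC-3, and -3.81 and -2.12 in Ca9-22. KON was lowest on either siRNA, but the nearest arrays of KON and Ca9-22 lay 0.09 apart, and CDKN2B was not called (adjusted p = 0.285 from limma).

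KRT19, a keratin of simple epithelia and basal squamous cells, had levels of -2.50 and -0.38 in KON, 9.61 and 9.65 in HSC-3, and 7.59 and 8.02 in Ca9-22. Although low, it was detected on both KON arrays, and its difference was -10.15 ± 0.87 (SE, n = 2 against 4 arrays; adjusted p = 0.0126 from limma). KRT19P2 is a processed copy of KRT19, and the signal of its probe cannot be assigned to the copy rather than to KRT19. Of the 7 simple epithelial keratins kept, KRT19 was the only one called or set apart. KRT18 had 7.48 and 8.93 in KON and 6.35 to 9.50 elsewhere, within the range of the other lines. KRT8, the usual partner of KRT18, had 0.71 and 4.32 in KON, 4.90 and 7.32 in HSC-3, and 3.79 and 5.16 in Ca9-22, so that KON was the lowest line after either siRNA, without a call (adjusted p = 0.155 from limma).

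PARD3, a scaffold of the polarity complex at tight junctions, depended on the probe. One probe had levels of -4.58 and -5.40 in KON and 4.26 to 4.51 on the 4 other arrays, at least 268-fold lower in KON. The other probes of PARD3 had differences of -2.73 (called) and -0.70 (not called, adjusted p = 0.373 from limma). The files assign the probes to different transcripts, and a difference between transcripts was not tested. IVD, a mitochondrial enzyme of leucine breakdown, had -5.85 and -3.15 in KON and 2.21 to 3.61 elsewhere. It was detected on 1 KON array. APOBEC3B, a cytidine deaminase that edits DNA, had -5.71 and -5.41 in KON, -0.40 and 0.86 in HSC-3, and 0.98 and 1.83 in Ca9-22. It was at least 22.6-fold lower in KON, and with normexp background correction its adjusted p was 0.0551. S100A14, a calcium-binding protein of epithelia, had -0.80 and 0.08 in KON and 5.00 to 6.31 elsewhere. HSD17B1, which makes estradiol, had -3.57 and -3.31 in KON and 1.61 to 2.99 elsewhere. HDHD1, a pseudouridine phosphatase whose current symbol is PUDP, and the membrane progesterone receptor PAQR5 were at least 64.5-fold and 23.8-fold lower in KON. A second HDHD1 probe was at least 5.64-fold lower in KON and was set apart without a call (adjusted p = 0.0555 from limma). RNLS and RIMS2 were at least 10.6-fold and 8.79-fold lower.

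Over groups of genes, the median difference of KON from the other lines was positive in cancer-testis genes and in genes of the NRF2 and xenobiotic response, negative in interferon-induced genes, and near 0 in squamous markers. Beside the counts for each group stand those over all 18450 genes, in which 1 probe stands for a gene. Of these, 2.14% were called higher, 1.21% called lower, 4.27% set apart higher, and 2.94% set apart lower in KON. On both siRNAs KON lay above the mean of the other lines in 42.1% and below it in 39.7% of the genes. The median difference over all genes was 0.02. An unadjusted p below 0.05 in limma was found for 3883 of the 18450 genes, and the methods' t-test called 614. The counts of this kind given below for single lists are to be read beside these. Arrays of a line are alike (consensus correlation 0.78), and with the line as a random block ALDH3A1, MAGEA6, and MAGEC2 stayed called among the genes of the lists, in the probe that stands for the gene. Of these, ALDH3A1 and MAGEC2 were detected in KON only and passed the filter through it, while MAGEA6 was detected on every array in this probe. The others called, given below, had an adjusted p of 0.0548 (CDKN2A) to 0.512 (ALDH3B1) in that fit.

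**Figure D2:**
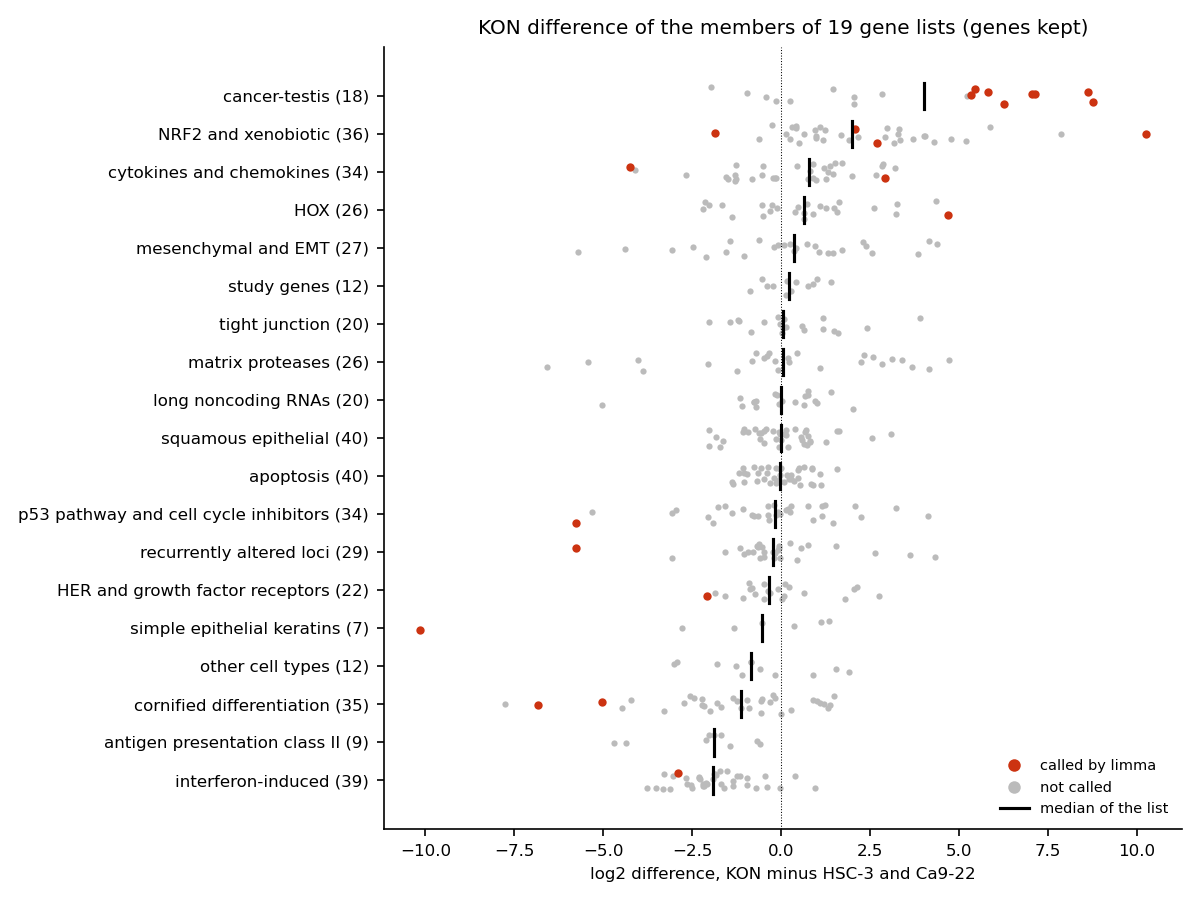
Log2 difference of KON from the mean of HSC-3 and Ca9-22 for each gene kept in 19 gene lists, with the number of genes kept in brackets; red points were called by limma, gray points were not, and bars are the medians. The medians run from 4.03 for the cancer-testis genes to -1.91 for the interferon-induced genes.

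Cancer-testis genes are read mainly in male germ cells and are switched on in some tumors. Of 39 listed, 18 were kept, 8 were called higher, none was called lower, and 10 were set apart higher in KON. Their median difference was 4.03. As 5 of the 18 were kept through the KON arrays alone, among them 4 of those called (MAGEC2, MAGEA11, MAGEB2, and DDX43), these counts and this median were partly set by the filter. Among the 6 genes detected on every array, 3 were called higher, and the median was 2.80, against 0.00 over the 13986 genes of this kind.

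The genes called were MAGEC2, MAGEA12, DDX43, MAGEB2, MAGEA11, CSAG1, MAGEA6, and CSAG2. MAGEC2, which enhances the activity of a ubiquitin ligase, had levels of 3.52 and 3.12 in KON and none above -5.27 in the other lines, at least 111-fold higher. MAGEA12 had 4.11 and 4.02 in KON, -4.30 and -5.77 in HSC-3, and -5.63 and -2.61 in Ca9-22. DDX43, a helicase of germ cells, had 2.03 and 0.98 in KON and none above -5.47 elsewhere, at least 31.6-fold higher. In each of these genes KON does not overlap the other lines. The 2 probes of MAGEA6 gave differences of 11.12 and 5.46, and both were called. Genes of the MAGEA group and the CSAG genes are near-identical in sequence, so the signal of 1 member may include that of another.

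Other members went their own way. MAGEA1 had levels of 3.71 and 3.43 in KON, 1.93 and 1.86 in HSC-3, and -5.17 and -5.23 in Ca9-22, and was set apart from both lines without being called (adjusted p = 0.362 from limma). MAGEA4 was highest in HSC-3, with 3.22 and 3.23, against 0.94 and 1.03 in KON. GAGE2B was lowest in KON, with 0.00 and -0.08, against 0.51 and 1.25 in HSC-3 and 3.37 and 2.58 in Ca9-22. PRAME and SSX2 had differences of 0.26 and -0.14 and were not called.

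**Figure D3:**
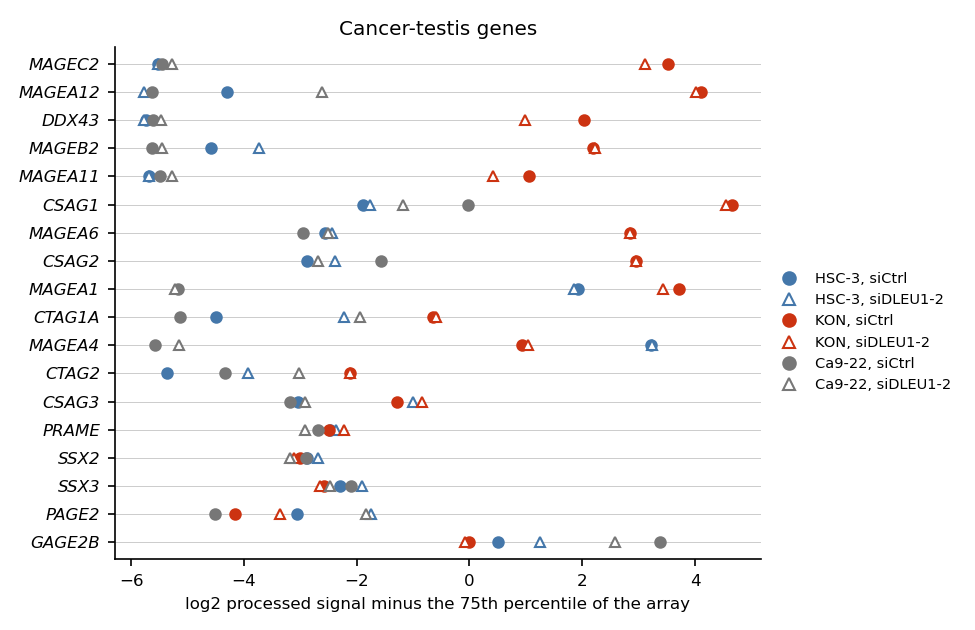
Levels of the 18 cancer-testis genes kept on each array, as log2 processed signal minus the 75th percentile of the array, ordered by the difference of KON. In the upper 10 genes, from MAGEC2 to CTAG1A, both KON arrays lie over 1 above all other arrays, and in GAGE2B they lie below them.

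NRF2 is a transcription factor that KEAP1 marks for degradation until oxidants or electrophiles block it, and it then drives enzymes that make glutathione, reduce quinones and aldehydes, and export drugs. Of 43 genes of this response and of xenobiotic metabolism, 36 were kept, 3 were called higher, 1 was called lower, and 14 were set apart higher and 1 lower in KON. On both siRNAs, KON lay above the mean of the other lines in 32 genes and below it in 1. The median difference was 2.0. For the 28 genes detected on every array, it was 1.21, and 10 of these were set apart higher. The median was 1.23 against HSC-3 and 2.12 against Ca9-22. With normexp background correction it was 1.48.

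The genes called higher include enzymes that reduce quinones and oxidized proteins. NQO1, a quinone reductase, had levels of 2.62 and 2.34 in KON, 0.87 and 0.49 in HSC-3, and 0.23 and -0.01 in Ca9-22. SRXN1, which restores oxidized peroxiredoxins, had 7.06 and 6.58 in KON and 3.82 to 4.45 elsewhere. Both were called higher, by 2.08 ± 0.32 (adjusted p = 0.0472 from limma) and by 2.69 ± 0.35 (adjusted p = 0.032 from limma). With the line as a random block neither stayed called (adjusted p = 0.331 and 0.277 from limma). The third gene called higher was ALDH3A1, the 1 gene of this list kept through the KON arrays alone. ALDH3B1, also an aldehyde dehydrogenase, was called lower, with -0.77 and -0.26 in KON and 0.83 to 2.09 elsewhere.

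None of the other members set apart higher was called in the probe that stands for the gene. SLC7A11, the cystine transporter, had levels of 5.99 and 6.14 in KON, 0.83 and 2.82 in HSC-3, and 3.68 and 4.25 in Ca9-22. AKR1C1, an aldo-keto reductase, had 7.22 and 7.72 in KON, 4.73 and 4.74 in HSC-3, and 2.11 and 2.10 in Ca9-22. UGT1A6, a glucuronosyltransferase, had 6.34 and 6.40 in KON, -0.41 and 0.31 in HSC-3, and 2.76 and 1.99 in Ca9-22. In each of these, both KON arrays lay above all other arrays. GPX2, a glutathione peroxidase of epithelia, had 6.39 and 6.01 in KON and -0.16 to 4.22 elsewhere. HMOX1, which breaks down heme, had 5.42 and 5.72 in KON and 1.13 to 4.15 elsewhere. The glutathione transferase GSTM3 had 6.28 after siCtrl and 2.79 after siDLEU1-2 in KON, and -5.36 to -1.15 elsewhere, so its KON arrays lay far from each other as well. AKR1B1, AKR1C3, AKR1C4, GSTM1, and CYP4F11 were also set apart higher, by gaps of 1.17 to 2.31. Members of the AKR1C group and of the GSTM group, and the genes of the UGT1A locus, share sequence, and which of them a probe reads was not tested. GCLC, which makes the first bond of glutathione, had 2.96 and 3.48 in KON and 2.80 to 3.17 elsewhere, a difference of 0.25 ± 0.28. KEAP1 had 4.11 and 4.02 in KON and 2.86 to 4.29 elsewhere, within the range of the other lines.

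NRF2 binds the antioxidant response element, and its core, TGAC followed by any 3 bases and GC, was searched on both strands in the 250 bases before the start of each gene. These sequences are from RefSeq on GRCh38.p14, and 11% of the 27305 promoters held the core. Only 27 of the 36 genes kept have a promoter in this table, which is too few to set a share of the list against that of all promoters. The promoters of the members set apart higher that hold the core are shown, 5′ to 3′ on the strand of the gene with the core or its reverse complement in capitals, because they belong to genes of 1 response that were set apart in the same direction. They are 3 of the 11 members set apart higher that have a promoter in the table, and 7 members that were not set apart, GCLM, TXNRD1, PGD, ME1, CBR1, GSTP1, and GSTA4, hold the core too. A match is a description of the sequence, and no binding was measured.
GPX2 (chr14:64942746-64942995, minus strand): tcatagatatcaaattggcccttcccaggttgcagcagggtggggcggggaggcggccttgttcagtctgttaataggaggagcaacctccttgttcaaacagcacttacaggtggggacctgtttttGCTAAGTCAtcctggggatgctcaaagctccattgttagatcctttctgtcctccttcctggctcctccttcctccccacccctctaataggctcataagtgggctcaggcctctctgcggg
CYP4F11 (chr19:15934868-15935117, minus strand): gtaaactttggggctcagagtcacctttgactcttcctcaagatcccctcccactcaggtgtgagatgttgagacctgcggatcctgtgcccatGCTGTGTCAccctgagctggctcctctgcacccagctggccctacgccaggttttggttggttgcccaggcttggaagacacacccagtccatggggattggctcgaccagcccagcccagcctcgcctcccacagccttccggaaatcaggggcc
GSTM1 (chr1:109687567-109687816, plus strand): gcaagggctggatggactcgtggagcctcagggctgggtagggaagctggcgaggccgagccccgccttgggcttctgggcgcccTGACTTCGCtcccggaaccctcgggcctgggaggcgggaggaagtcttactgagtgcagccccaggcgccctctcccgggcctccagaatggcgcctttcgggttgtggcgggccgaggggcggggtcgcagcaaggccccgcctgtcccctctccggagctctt

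Interferon-induced genes are turned on when interferon binds its receptor, and many of them act against viruses. All 39 listed were kept. HERC6 was called lower in KON, 5 genes were set apart lower, and none was called or set apart higher. On both siRNAs, KON lay below the mean of the other lines in 35 genes. The median difference was -1.91. The median was -3.19 against HSC-3 and -0.93 against Ca9-22. In the same comparison with HSC-3 in the place of KON, 17 of the 39 genes were set apart higher, and the median of HSC-3 against the other lines was 2.60. Against Ca9-22 alone, some of the genes, such as IFI27, IFITM1, and XAF1, had a higher mean level in KON.

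Among the effectors, HERC6, an E3 ligase, had levels of -3.23 and -3.18 in KON, 0.10 and -0.13 in HSC-3, and -1.07 and -0.17 in Ca9-22. For this probe KON does not overlap the other lines, and the difference was -2.89 ± 0.40 (SE, n = 2 against 4 arrays; adjusted p = 0.0389 from limma). The call was lost with normexp background correction (adjusted p = 0.0587) and with the line as a random block (adjusted p = 0.439). The second HERC6 probe had -3.66 and -2.75 in KON and -3.39 to -0.33 elsewhere, which overlap, and it was not called (difference -1.80, adjusted p = 0.374 from limma). IFI6 had 0.77 and -0.03 in KON, 5.79 and 4.38 in HSC-3, and 4.18 and 2.20 in Ca9-22. IFI6 was set apart lower but not called (adjusted p = 0.094 from limma), as were OASL, ISG20, and LGALS3BP, with differences of -3.13, -1.70, and -1.36. MX1, an antiviral GTPase, had 2.91 and 2.31 in KON, 7.44 and 6.37 in HSC-3, and 5.11 and 2.22 in Ca9-22. For MX1, KON thus overlaps Ca9-22, where the siDLEU1-2 array lay far below the siCtrl array. BST2, a protein that tethers viruses to the cell, was an exception, with 4.94 and 4.38 in KON, 5.58 and 4.73 in HSC-3, and 3.51 and 1.01 in Ca9-22.

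**Figure D4:**
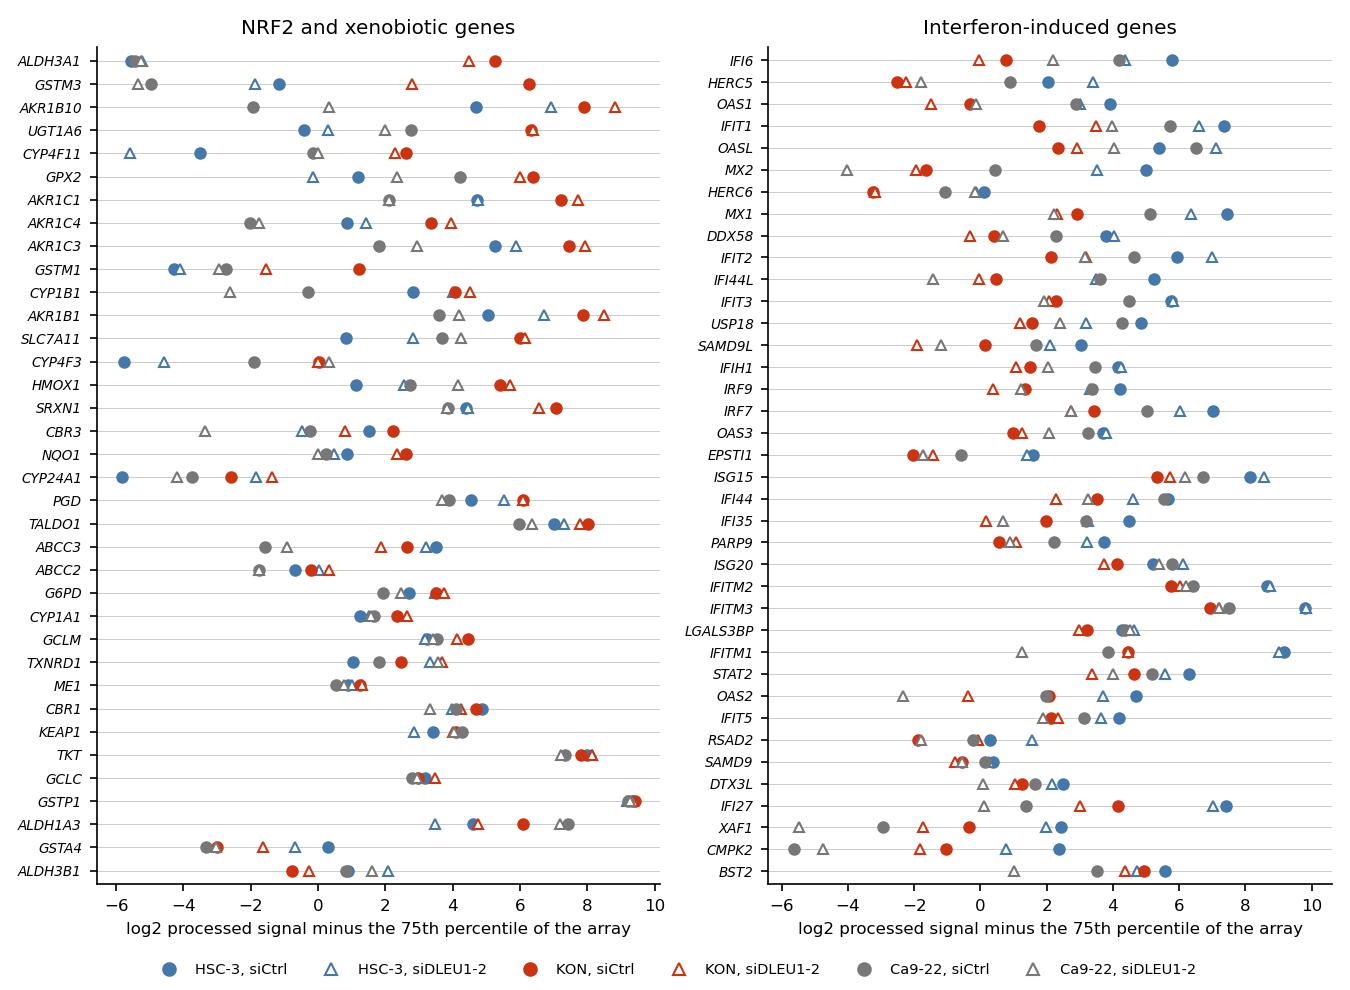
Levels of the 36 NRF2 and xenobiotic genes and 38 of the 39 interferon-induced genes kept on each array, as log2 processed signal minus the 75th percentile of the array. On the left, both KON arrays lie over 1 above all other arrays in 14 genes, and on the right the HSC-3 arrays are mostly the highest and the KON arrays lie over 1 below all others in 5 genes.

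No marker of the squamous epithelium was called or set apart in KON. All 40 listed were kept, and limma called 0 of them (5 at an unadjusted p below 0.05, 0 by the methods' t-test). The median difference was -0.02. KRT5, a keratin of basal cells, had levels of 5.95 and 5.74 in KON, 7.72 and 6.40 in HSC-3, and 5.83 and 3.94 in Ca9-22. KRT14, its partner, had 5.73 and 5.42 in KON, within the range of 3.59 to 7.54 of the other lines. The brightest marker was SFN, a 14-3-3 protein of epithelia, with 7.92 and 6.89 in KON and 7.48 to 9.14 elsewhere. TP63 had -0.15 and -2.50 in KON, 0.77 and -1.61 in HSC-3, and -0.40 and -3.08 in Ca9-22, so its arrays were further apart by siRNA than by line. DSP, the desmosomal linker to keratin, had 4.57 and 4.29 in KON and 5.13 to 7.05 elsewhere, the lowest line in both siRNAs without a call (adjusted p = 0.183 from limma).

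The genes of the last stage of squamous differentiation include kallikreins, serine proteases that cut cell contacts as surface cells are shed. Of 46 genes of cornified differentiation, 35 were kept, 2 were called lower, 4 were set apart lower, and the median difference was -1.14. It was -1.45 against HSC-3 but -0.22 against Ca9-22, and -0.53 for the 15 genes detected on every array. The list was high in HSC-3, with a median of 1.42 for that line against the others, and 9 of the genes kept were dim on both KON arrays. KLK8 had levels of -1.88 and 0.10 in KON, 6.45 and 6.88 in HSC-3, and 5.10 and 5.31 in Ca9-22, a difference of -6.83 ± 0.73 (adjusted p = 0.0199 from limma). KLK7 had -6.02 and -3.72 in KON and -0.13 to 0.73 elsewhere, at least 14.5-fold lower (adjusted p = 0.0174 from limma). KLK5, which activates KLK7, had -5.54 and -3.70 in KON, 4.41 and 6.05 in HSC-3, and 0.33 and 1.77 in Ca9-22. KLK5 was at least 113-fold lower in KON but was not called (adjusted p = 0.0929 from limma), as HSC-3 and Ca9-22 also differed. KLK11 was at least 6.30-fold lower and not called (adjusted p = 0.0826 from limma). The other kallikreins of this list that were kept, KLK6, KLK10, and KLK13, overlapped the other lines, with differences of 0.91, -0.18, and -1.80. KLK6 had 2.90 and 5.16 in KON and 1.77 to 5.16 elsewhere. The keratin KRT10 of suprabasal cells was the brightest of the list and had 5.93 and 6.26 in KON and 6.17 to 6.58 elsewhere.

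The lists of tight junction genes, of mesenchymal and EMT genes, and of matrix proteases held no called gene. Of 20 tight junction genes kept, limma called 0 (2 at an unadjusted p below 0.05, 0 by the methods' t-test), and CGNL1 was set apart higher. The brightest, CLDN4, had 7.40 and 8.60 in KON and 4.53 to 8.48 elsewhere. Of 27 mesenchymal and EMT genes, limma called 0 (5 at an unadjusted p below 0.05, 0 by the methods' t-test). LOX, which cross-links collagen, was set apart higher and TWIST1, a driver of EMT, was set apart lower, with differences of 4.38 and -2.48. TGFBI was the brightest, with 7.94 and 8.03 in KON and 6.25 to 8.53 elsewhere. CDH2, N-cadherin, had 3.80 and 4.48 in KON, -4.78 and -0.35 in HSC-3, and 1.51 and 3.5 in Ca9-22. VIM had -0.20 and -0.41 in KON, between 4.07 and 4.32 in HSC-3 and -2.05 and -1.36 in Ca9-22. The order of the lines thus differed between CDH2 and VIM.

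Among matrix proteases and their inhibitors, 26 of 27 were kept and limma called 0 (11 at an unadjusted p below 0.05, 0 by the methods' t-test). Set apart higher were MMP2, TIMP4, SERPINE2, ADAM12, and ADAMTS1, and set apart lower were MMP3, MMP10, and MMP12. MMP2, a gelatinase, had levels of 1.09 and 0.87 in KON, -2.0 and -2.58 in HSC-3, and -5.31 and -5.12 in Ca9-22. MMP10, a stromelysin, had -2.82 and -3.48 in KON, -1.20 and -0.80 in HSC-3, and 3.62 and 1.23 in Ca9-22. The brightest, TIMP2, had 4.94 and 6.07 in KON and 5.31 to 8.15 elsewhere. The list as a whole had a median difference of 0.05, with members on both sides of it.

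Of the HER family and other growth factor receptors and their ligands, 22 of 27 were kept and only ERBB2 was called. ERBB2, the coreceptor HER2, had levels of 1.18 and 0.20 in KON, 3.20 and 2.71 in HSC-3, and 2.74 and 2.48 in Ca9-22, a difference of -2.09 ± 0.30 (SE, n = 2 against 4 arrays; adjusted p = 0.0413 from limma). A second ERBB2 probe, which the files assign to another transcript record, had a difference of 0.41 ± 0.45 and was not called, so the lower level of ERBB2 was seen with 1 of its 2 probes. EGFR had 2.75 and 1.22 in KON, 3.58 and 3.46 in HSC-3, and 4.33 and 2.92 in Ca9-22 (adjusted p = 0.115 from limma).

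Of the cytokines and chemokines, 34 of 42 were kept, with 1 called higher and 1 called lower. TNFSF10, the death ligand TRAIL, had levels of 0.79 and 0.84 in KON, 4.83 and 6.61 in HSC-3, and 4.04 and 4.76 in Ca9-22. Its probes gave differences of -4.24 and -4.30, both called lower. CSF2, which encodes GM-CSF, had 0.79 and 0.94 in KON and -3.07 to -1.19 elsewhere, and was called higher by 2.92 ± 0.44 (adjusted p = 0.0451 from limma). IL11 and IL32 were set apart higher, by gaps of 1.17 and 1.58, and were not called. Of 9 genes of class II antigen presentation kept, limma called 0 (2 at an unadjusted p below 0.05, 0 by the methods' t-test), and 8 lay below the mean of the other lines on both siRNAs. Of the 9, 5 were dim on both KON arrays. The median difference was -1.90, with -1.27 against HSC-3 and -2.56 against Ca9-22. The list was high in Ca9-22, with a median of 2.13 for that line against the others. HLA-DRB1, the brightest, had -1.66 and -1.64 in KON, -0.07 and -0.69 in HSC-3, and 0.90 and 1.33 in Ca9-22. HLA-DRB5, which shares sequence with HLA-DRB1, and HLA-DMB were set apart lower.

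In the remaining lists few genes set KON apart. Of 26 HOX genes kept, HOXD13, a gene of distal limb patterning, was called higher, with levels of -0.18 and -0.69 in KON and none above -3.87 elsewhere, at least 8.22-fold, but it was kept through the KON arrays alone. HOXA7 had 2.49 and 2.49 in KON, -2.79 and -2.89 in HSC-3, and -1.27 and -0.47 in Ca9-22, and was set apart without a call (adjusted p = 0.0743 from limma). Of 34 genes of the p53 pathway and cell cycle inhibitors, CDKN2A was the only one called, while CCND3 was set apart higher and TP53INP1 lower. Of 40 apoptosis genes kept, limma called 0 (7 at an unadjusted p below 0.05, 1 by the methods' t-test), none was set apart, and the brightest, DIABLO, had 6.68 and 6.68 in KON and 6.57 to 7.17 elsewhere. Of 20 well-known long noncoding RNAs, limma called 0 (4 at an unadjusted p below 0.05, 0 by the methods' t-test), and GAS5, the brightest, had 7.24 and 7.59 in KON and 6.34 to 7.34 elsewhere. Of 29 genes at loci recurrently altered in squamous carcinoma, CDKN2A was called and DMRTA1 and ANO1 were set apart higher. ANO1, a chloride channel at the amplified region of chromosome 11, had 2.20 and 2.78 in KON, -0.56 and 1.16 in HSC-3, and -2.69 and -2.48 in Ca9-22. CCND1 of the same region had 2.86 and 3.26 in KON and 3.04 to 3.40 elsewhere.

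Of 12 marker genes of other cell types kept, limma called 0 (4 at an unadjusted p below 0.05, 1 by the methods' t-test), and VWF and PMEL were set apart lower. CD79A was the brightest, with 1.65 and 1.40 in KON and 2.27 to 2.45 elsewhere. A short list of genes taken from the study held none that was set apart in KON, and of 12 kept limma called 0 (2 at an unadjusted p below 0.05, 0 by the methods' t-test). HAS3, which makes hyaluronan, had 3.20 and -0.33 in KON, 3.56 and -2.02 in HSC-3, and 3.58 and -0.02 in Ca9-22. CD44, its receptor, had 6.54 and 3.61 in KON, 6.21 and 2.61 in HSC-3, and 5.15 and 2.25 in Ca9-22. In these probes of both genes the arrays were further apart by siRNA than by line. In a second probe of each gene this was not so. That of HAS3 had -1.14 and -1.58 in KON and -1.93 to -1.62 elsewhere. That of CD44 had -1.02 and -0.07 in KON, -1.48 and 0.24 in HSC-3, and -3.21 and -2.74 in Ca9-22. CDH1, E-cadherin, had differences of 0.13 ± 0.27, WEE1 of 0.89 ± 0.24, SMYD2 of 0.27 ± 0.63, GALNT3 of -0.41 ± 0.53, SETD6 of 0.43 ± 0.24, KDM1B of -0.88 ± 0.44, HOXD8 of -0.53 ± 0.60, and LINC00460 of 1.40 ± 0.40.

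Position along the chromosomes was not used to choose KON or its genes, and most regions had a median difference near 0. In windows of 10 Mb with at least 10 genes, 248 of 296 had a median difference within 0.5 of 0. The lowest was -1.02 and the highest 1.48. The same range was -1.70 to 1.10 for HSC-3 and -1.62 to 0.94 for Ca9-22. No DNA copy number was measured, so copy number and transcription cannot be told apart.

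**Figure D5:**
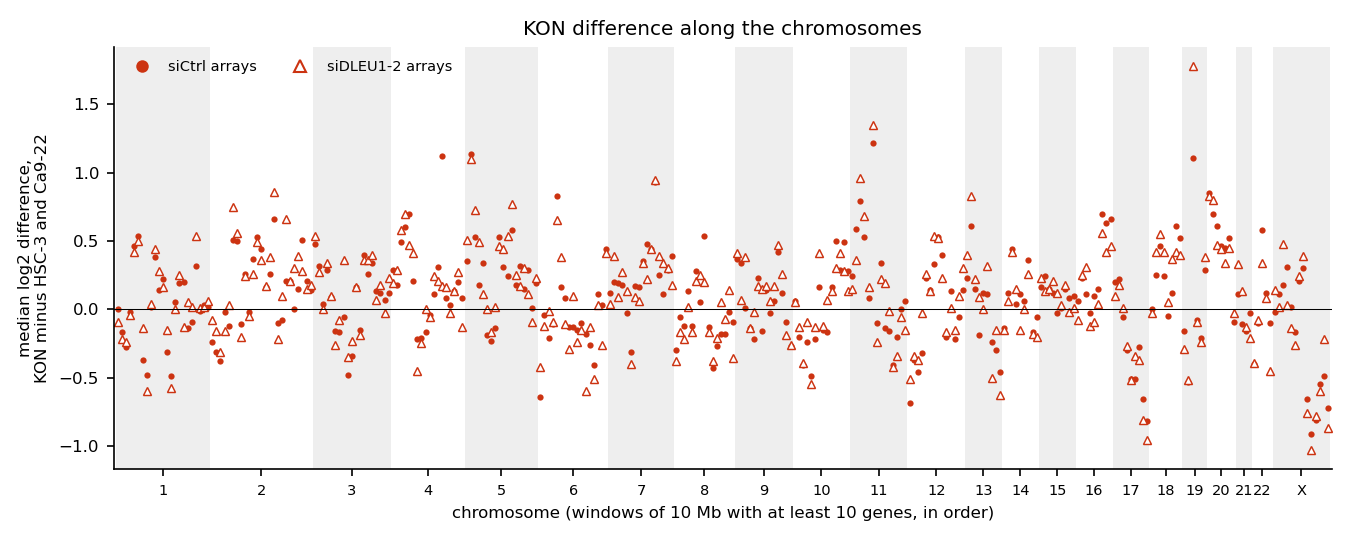
Median log2 difference of KON from the mean of HSC-3 and Ca9-22 in each of 296 windows of 10 Mb with at least 10 genes, in chromosome order; circles are the siCtrl arrays and triangles the siDLEU1-2 arrays. The highest window is on chromosome 19 and the second on chromosome 11, while the last window of chromosome 17 and a window of the X chromosome lie lowest.

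The highest window was on chromosome 19 from 20 to 30 Mb, where 45 genes had a median of 1.11 after siCtrl and 1.78 after siDLEU1-2. This was also the lowest window of HSC-3, at -1.70, and the median was 2.16 for KON minus HSC-3 and 0.97 for KON minus Ca9-22. It holds a cluster of zinc finger genes, which encode DNA-binding repressors, many of them of transposable elements. Of 25 genes named ZNF there, 23 lay above the mean of the other lines on both siRNAs, 3 were called higher, and 10 were set apart higher. This family was singled out after its values were seen. ZNF626 had levels of 1.26 and 1.55 in KON, -1.30 and -1.88 in HSC-3, and -0.88 and -0.82 in Ca9-22, and was called (adjusted p = 0.049 from limma). ZNF726 and ZNF682 were called too, at least 6.57-fold and 1.52-fold higher in KON, but both are among the 5 of the 25 genes that were kept through the KON arrays alone. ZNF91 had -2.05 and -1.34 in KON and -5.78 to -3.44 elsewhere and was set apart without a call (adjusted p = 0.105 from limma). The ZNF genes of the window were lowest in HSC-3, with a median of 2.44 for KON minus HSC-3 against 1.09 for KON minus Ca9-22. Over all of chromosome 19, the 183 ZNF genes had a median difference of 0.59, with 28 set apart higher and 2 lower. The 212 ZNF genes of other chromosomes had 0.18, with 7 higher and 8 lower. As 15 of the 183 and 4 of the 212 were kept through the KON arrays alone, these counts and medians were partly set by the filter. The zinc finger genes are related in sequence, and cross-hybridization was not tested.

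On chromosome 11 from 50 to 60 Mb, 36 genes had a median of 1.33, and 11 were set apart higher and 1 lower. CLP1, an RNA kinase, had levels of 1.98 and 1.87 in KON and -0.86 to -0.42 elsewhere, and ZFP91 had 3.67 and 3.47 in KON and 1.62 to 2.01 elsewhere. Both were called, as were SLC43A1, MED19, and TMX2 of the same window. Chromosome 5 from 10 to 20 Mb had a median of 1.02 over 26 genes. Chromosome 7 from 110 to 120 Mb had 0.94 over 22 genes, and chromosome 11 from 20 to 30 Mb had 0.88 over 18. On chromosome 20 from 0 to 10 Mb, 91 genes had a median of 0.79, 11 were set apart higher, and none was lower. The median was 0.52 for KON minus HSC-3 and 1.27 for KON minus Ca9-22, and Ca9-22 against the other lines had -1.02. SRXN1 of the NRF2 list lies in this window, and NOP56 and MCM8 were set apart there as well. At the other end, chromosome 17 from 70 to 80 Mb had a median of -0.72 over 189 genes, with 14 set apart lower and 1 higher. The next window of chromosome 17 had -1.02 over 32 genes. FASN, the fatty acid synthase, lies in the latter and had 3.44 and 3.15 in KON and 5.61 to 6.5 elsewhere (adjusted p = 0.0331 from limma). The windows of the X chromosome from 110 to 120 Mb and from 120 to 130 Mb had -0.87 and -0.80. Restricted to genes detected on every array, the medians were 1.07 for the window of chromosome 19 and 1.38 for that of chromosome 11 from 50 Mb. They were 0.88 for that of chromosome 20 and -0.73 for that of chromosome 17 from 70 Mb.

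Of 14292 genes detected on all 4 arrays of the other lines, 167 (1.17%) were detected on neither KON array. Only 5 runs of neighboring genes of this kind were found, each of 2 genes. Neighbors were taken among the 14292 genes alone, so other genes may lie between the 2 of a run. ARMCX3 and ARMCX2, related genes side by side on the X chromosome, had -5.29 and -5.56 and -6.03 and -5.71 in KON, with -0.55 to -0.27 and -1.89 to 0.37 elsewhere. Both were called lower, by at least 9.85-fold and 5.78-fold. With normexp background correction ARMCX3 stayed called and ARMCX2 did not (adjusted p = 0.0252 and 0.128 from limma). With the line as a random block neither did (adjusted p = 0.0548 and 0.435 from limma). KLK1 and KLK5 on chromosome 19 formed a run, in which KLK1 was at least 3.01-fold lower. ZNF117 and ERV3-1 on chromosome 7 had differences of -2.08 and -2.33 and were not called. The other runs hold unnamed transcripts on chromosomes 1 and 2.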

How the data were processed

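The authors deposited the output of Agilent Feature Extraction 10.7 (per the submitters' processing notes) for 6 arrays, 1 per line and siRNA, for which 100 ng of total RNA was amplified into Cy3-labeled cRNA. The deposited values used are an intensity per spot, background-subtracted and detrended by that software and not normalized between arrays. The flags for outlier spots and for spots well above background are also theirs. The methods name GeneSpring GX, and their filter is not given in the sources used here. Probe positions are on hg19.

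Control and outlier spots were left out, the 10 spots of replicated probes were averaged, log2 was taken, and the 75th percentile of each array was subtracted. Probes were kept if well above background (at least 50% of spots) on at least 2 of 6 arrays. limma 3.58.1 (R 4.3.3; lmFit, eBayes) was fitted with KON and siRNA as terms, with Benjamini-Hochberg adjustment over 24517 probes. The gap threshold was 1. The arrays were on 1 slide, and 6 arrays limit the precision. A gene is represented by its kept probe with the highest mean, and of the 36337 gene names in the files, 20356 (56.0%) were found in RefSeq.

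Genes named are the 15 with the widest gap in each direction among called probes with a symbol, well above background on both KON arrays (higher) or on all 4 others (lower), without XIST and Y-linked genes; called list members, or the brightest member of a list without one; neighbors dim only in KON; and a short list of genes from the study's text and supplement. Others named in the text were chosen after their values were seen. Members and lists were chosen with earlier results of these data known. The fit was tested on simulated data. Alternatives covered centering, quantile normalization, normexp (offset 50), the authors' table, filters, a detection floor, other models, the methods' t-test (Student's, adjusted likewise), means over probes, and arrays or lines left out. Some genes that the rule names are not reported here.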

Additional observations from a re-analysis of the deposited data

How the results depend on the processing

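The direction of all 47 differences named by the rule (30 of the widest gaps and the called list members) was kept in each alternative that could be computed, but the calls were not. As these genes were chosen for their gaps or calls in the same data, the kept direction is no support for the differences. With the cell line as a random block, 16 of the 47 stayed called, with normexp background correction 45, and without either KON array 0. The main counts were 536 probes called higher and 277 lower, and 1058 set apart higher and 677 lower. Filters moved the calls to 24 and 57 (at least 3 of 6 arrays), 24 and 26 (all 6 arrays), and 159 lower (at least 1 array). The probes set apart became 565 higher (at least 3 arrays), and 334 higher and 339 lower (all 6 arrays). With normexp, 517 were set apart higher and 274 lower. With the cell line as a fixed term, 4561 were called higher and 3757 lower, and with a random block 36 and 5. On siCtrl arrays alone, 2042 were set apart higher and 1765 lower, with 1 KON array in the count. Leaving out 1 array or 1 line gave 0 to 3623 called higher, 0 to 3102 called lower, 1214 to 2578 set apart higher, and 823 to 2093 set apart lower. The lowest counts of calls are those without a KON array, where the lone array is assumed to vary like the others, and without HSC-3 siCtrl, HSC-3 siDLEU1-2, Ca9-22 siCtrl, or Ca9-22 siDLEU1-2 the calls were 172 and 51, 234 and 65, 177 and 44, and 239 and 54. The higher counts are those without a whole line, and they leave out its spread. Under the remaining alternatives each count stayed within 1.5 times of its value. The median of the NRF2 and xenobiotic genes ran from 1.21 to 2.16, that of the interferon-induced genes from -3.19 to -0.93, and that of the cancer-testis genes from 2.06 to 5.14. The ends of the interferon range equal the medians against HSC-3 alone and against Ca9-22 alone. For the cancer-testis genes, the lowest value equals the normexp median and the highest equals the median against Ca9-22 alone. The cause of the other moves was not tested. No block for slide was fitted, since there is 1 slide. Signal near background limits the size of differences of dim probes.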
